A study of Caenorhabditis elegans with 2 samples.

Results

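The cytosolic ribosomal protein genes of Caenorhabditis elegans were taken as the protein-coding genes with a symbol that starts with rpl- or rps- and a digit. There were 78 such genes among 19973 nuclear protein-coding genes, of which 47 have symbols of the large subunit (rpl-) and 31 of the small subunit (rps-). A gene was counted as having a region where the midpoint of one fell in its promoter window, which began 500 bp before the annotated 5′ end and ended 200 bp after it. Distances below are given from that 5′ end, with upstream positions negative.

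The regions came from chromatin immunoprecipitation and sequencing (ChIP-seq) of the nuclear hormone receptor NHR-12 in whole L1 larvae, the first larval stage. The worms were of strain OP318, genotype unc-119(ed3) III; wgIs318, in which an integrated transgene supplies NHR-12 fused at its C terminus to GFP and FLAG. Males and females were pooled, the age was unknown, and the only group consisted of 2 biological replicates, so no comparison between conditions was possible. One transgenic line stood for the factor, the tagged copy came from a transgene, and the cells of whole larvae cannot be told apart in these data. The promoter that drives the transgene is not stated in the labels, and the control experiment named in the labels was not analysed here.

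Each ribosome holds 1 copy of nearly every ribosomal protein, and growing cells make these proteins in matched amounts and in large quantity. In C. elegans many of the genes are short, lie close to a divergent neighbour, and give messages whose start is replaced by a spliced leader. Nuclear hormone receptors bind DNA through a zinc-finger domain, and this family is much enlarged in nematodes.

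The authors' region lists of the ce11 build were used. The replicate 1 list held 26878 regions and the replicate 2 list 30000. The joint list, called on both replicates together, held 3817 regions, and the set that passed the authors' irreproducible discovery rate (IDR) threshold held 164, of which 146 were nuclear. The IDR set was the top of the joint list by signal, so these lists are not independent of each other. Signal is the authors' score for a region, with no stated scale, and is compared here only within a list. It ran from 17.2 to 130 over the nuclear joint regions, and rank 1 is the highest signal of a list, mitochondrial regions included. No region of the IDR, joint or replicate 1 lists had a q-value of 0.05 or lower, and the lowest were 0.0827, 0.0827 and 0.0845. In the replicate 2 list 478 regions did. The depth of the libraries is unknown, since the lists give no read counts.

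The sequences around the strongest midpoints showed short words in common. Shown here are 8 stretches of the ce11 (WBcel235) genome from RefSeq, each reaching 60 bases either side of a joint midpoint and read on the strand of the ribosomal protein gene. They were chosen to show the 4 words shared among peaks of the IDR set and a peak of that set without any of them. Also shown are words found over the joint regions of all these genes, IDR peaks included. The stretch upstream of rpl-3 was chrIII:3867519-3867639 on the plus strand, and that of rpl-20 was chrIV:4750005-4750125 on the minus strand. The stretch of rpl-15 was chrIV:654866-654986 on the minus strand, and that of rps-1 was chrIII:4475594-4475714 on the plus strand. The stretch of rpl-11.2 was chrX:2242908-2243028 on the minus strand, and that of rps-12, which held none of the words, was chrIII:5679034-5679154 on the plus strand. The stretches of rpl-21, chrIII:8130470-8130590 on the minus strand, and rps-28, chrIV:1659208-1659328 on the plus strand, came from joint regions outside the IDR set. Capitals mark the shared words or their reverse complements, and words that overlap run together.
rpl-3: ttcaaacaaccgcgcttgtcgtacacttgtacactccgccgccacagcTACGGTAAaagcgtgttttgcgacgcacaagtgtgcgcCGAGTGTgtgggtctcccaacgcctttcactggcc
rpl-20: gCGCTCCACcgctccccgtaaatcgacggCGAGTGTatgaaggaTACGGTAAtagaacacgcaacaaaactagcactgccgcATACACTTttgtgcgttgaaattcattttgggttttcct
rpl-15: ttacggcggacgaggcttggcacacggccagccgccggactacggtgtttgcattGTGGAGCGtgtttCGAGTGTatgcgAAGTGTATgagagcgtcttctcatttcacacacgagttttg
rps-1: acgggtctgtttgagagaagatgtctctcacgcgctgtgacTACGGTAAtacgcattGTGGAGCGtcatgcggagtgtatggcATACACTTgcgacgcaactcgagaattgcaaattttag
rpl-11.2: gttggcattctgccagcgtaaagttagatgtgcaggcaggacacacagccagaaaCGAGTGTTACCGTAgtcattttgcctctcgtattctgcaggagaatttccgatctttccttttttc
rps-12: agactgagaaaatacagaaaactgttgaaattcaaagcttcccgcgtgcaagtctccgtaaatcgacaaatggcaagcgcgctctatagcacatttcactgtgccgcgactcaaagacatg
rpl-21: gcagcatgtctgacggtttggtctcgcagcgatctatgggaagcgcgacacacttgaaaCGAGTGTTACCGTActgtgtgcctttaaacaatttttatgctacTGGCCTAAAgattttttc
rps-28: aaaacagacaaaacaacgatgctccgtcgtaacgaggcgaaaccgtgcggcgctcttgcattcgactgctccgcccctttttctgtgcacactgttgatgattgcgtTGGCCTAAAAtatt

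Promoter windows of the ribosomal protein genes held a region more often than those of protein-coding genes at large in all 4 lists. A peak of the IDR set lay in 10 of the 78 windows (12.8%), beside 102 of all 19973 (0.511%). A joint region lay in 30 (38.5%), beside 4.98% of all genes. Replicate 1 gave 39 (50%) beside 21.4%, and replicate 2 gave 49 (62.8%) beside 24.8%. In 27 genes (34.6%) both replicates had a region in the window, beside 8.16% of all genes. The counts depend on the window: with an upstream limit of 250 bp, 7 genes (8.97%) had a joint region beside 3.04% of all genes, and 16 (20.5%) a replicate 2 region beside 15.8%. With each midpoint given only to the nearest 5′ end, 17 genes (21.8%) had a joint region beside 4.21%. These shares are descriptions of 1 set of lists, and their differences were not tested.

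Both subunits were represented. Genes with rpl- symbols, rpl-24.2 included, had 7 of the 10 IDR peaks and 20 of the 30 joint regions, that is, 14.9% and 42.6% of the 47 genes. Genes with rps- symbols had 3 and 10, that is, 9.68% and 32.3% of the 31 genes. Among genes with a region, the median joint rank was 368 for the large subunit, 233 for the small subunit and 1291 over all protein-coding genes. The difference between the subunits was not tested.

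**Figure D1:**
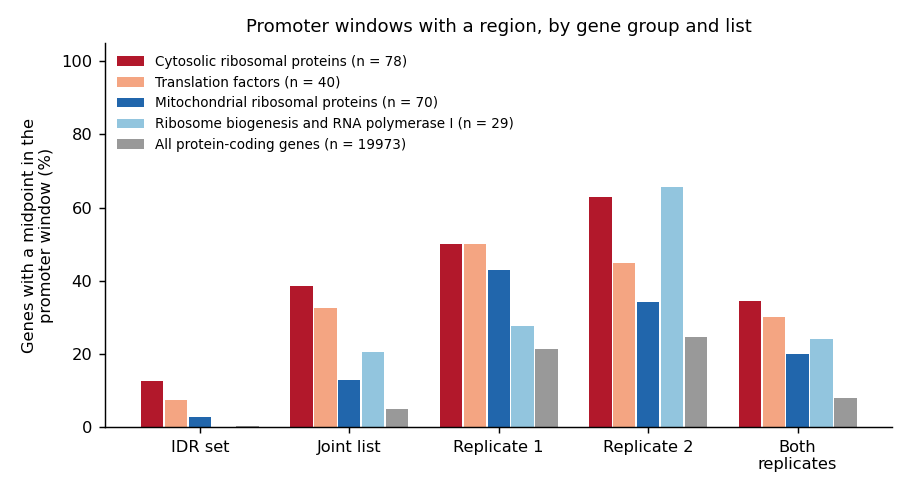
Share of genes (%) with a region midpoint in the promoter window, in each of the 4 lists and in both replicate lists at once; each bar is 1 gene group, with no error bar because each list is a single set. Bars of the cytosolic ribosomal protein genes reach 12.8% in the IDR set and 38.5% in the joint list, where all protein-coding genes reach 0.511% and 4.98%.

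In the order of joint signal the strongest was rpl-3, whose large-subunit protein reaches towards the peptidyl transferase centre. Its region, chrIII:3867391-3867766, had a signal of 130 at joint rank 14, with the midpoint at -275 bp. To 3 digits this was also the highest nuclear signal of the joint list. The gene had a signal of 65.2 at rank 19 in replicate 1 and of 65 at rank 3 in replicate 2. The highest nuclear signals of these lists were 66.3 and 75.1. Replicate 1 listed 21 mitochondrial regions and replicate 2 listed 0, so the top ranks of the 2 lists are not alike. The gene rpl-3 was thus near the top of both replicate lists, and its midpoint lay in no other gene's window.

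Next came rpl-35, a protein beside the exit tunnel of the large subunit, whose region chrIII:7854534-7854909 had a joint signal of 82.2 at rank 29, with the midpoint at -412 bp. Its replicate signals were 38.4 at rank 36 and 43.5 at rank 22. The large-subunit gene rpl-20, with the region chrIV:4749877-4750252, had a joint signal of 80.2 at rank 31, with 25.7 at rank 73 in replicate 1 and 54.6 at rank 8 in replicate 2. Its midpoint at -287 bp lay nearer, at -175 bp, to the divergent gene Y17G9B.5. Of these 2 genes, rpl-35 had its window to itself.

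The next 4 genes had joint signals between 54.6 and 59.7. The large-subunit gene rpl-15 had 59.7 at rank 57, with 15.3 at rank 710 in replicate 1 and 42 at rank 24 in replicate 2. The small-subunit gene rps-12 had 59.4 at rank 59, with 28.3 at rank 62 and 28.2 at rank 73. The gene rpl-11.2, 1 of a pair of genes for a protein that binds the 5S ribosomal RNA, had 59.2 at rank 61, with 27.8 at rank 63 and 31.4 at rank 56. These were close in the joint list, but rpl-15 ranked far lower in replicate 1 than the other two. The small-subunit gene rps-1 had 54.6 at rank 71, with 20 at rank 167 and 35.3 at rank 40.

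The paralog of rpl-11.2, rpl-11.1, had no joint region, and its regions ranked 20812 in replicate 1 and 28146 in replicate 2, at 77.4% and 93.8% of the way down these lists. The region of rpl-15 was chrIV:654738-655113, with its midpoint at -350 bp, which also lay in the window of K11H12.8. That of rps-12 was chrIII:5678906-5679281, with its midpoint at -204 bp, which was nearer to ska-3, at -89 bp. The region of rpl-11.2 was chrX:2242780-2243155, with its midpoint at -350 bp, and no other window held it. That of rps-1 was chrIII:4475466-4475841, with its midpoint at -264 bp, inside exons of the annotated noncoding RNA genes F56F3.10 and F56F3.11.

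The last 3 peaks of the set were lower. The gene rpl-12, for a protein at the base of the ribosomal stalk, had a joint signal of 45.9 at rank 102, with the midpoint at -39 bp, the closest to a 5′ end among the 30. It ranked 2196 in replicate 1 with a signal of 12.5, and 68 in replicate 2 with 29.2. The gene rpl-24.2, counted with the large subunit by its symbol although its yeast and human counterparts act in the assembly of that subunit, had 41.4 at joint rank 129, with 24.5 at rank 85 and 18.8 at rank 236, and its midpoint at -167 bp lay inside the gene C03D6.1, outside its exons. The gene rps-20, for a protein of the small-subunit head, had 37.6 at joint rank 159, with 11.3 at rank 3729 and 31.7 at rank 53. The rank in replicate 1 was lower than in replicate 2 for rpl-12 and rps-20, and higher for rpl-24.2. The midpoint of rps-20 at -201 bp lay at -196 bp from ekl-4, and that of rpl-12 lay at -354 bp from lin-54.

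All 10 IDR midpoints had a region midpoint within 100 bp in each replicate list. The IDR threshold selects for agreement between replicates, so this nearness came largely from the selection. The distance was at most 50 bp in replicate 1, with a median of 20 bp, and at most 41 bp in replicate 2, with a median of 12.5 bp. Of all 30 joint midpoints, these 10 included, 18 had one within 100 bp in both lists, 20 in replicate 1 and 27 in replicate 2. That count was not made over all genes. Counted by promoter window, 20 of the 30 genes (66.7%) had regions of both replicates. Over all protein-coding genes with a joint region it was 716 of 994 (72%), so the share was not higher in the ribosomal protein genes.

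The lowest signal in the IDR set was 37.1, just below that of rps-20 at 37.6. On the other side of that limit stood rps-19, a small-subunit gene whose human counterpart is mutated in Diamond-Blackfan anaemia, with a joint signal of 33.7 at rank 201. Its replicates differed widely, with 22.6 at rank 112 in replicate 1 and 7.36 at rank 12867 in replicate 2. The small-subunit gene rps-17 followed with 33.4, with 11.9 at rank 2891 in replicate 1 and 23.7 at rank 122 in replicate 2.

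The next 8 by joint signal lay between 26.6 and 31. They were rps-26, for a protein at the exit of the messenger RNA channel (31), rpl-7A (30.8), rpl-1, for the mobile stalk near the exit site (30), rps-23, for a protein at the decoding centre (29.6), rpl-41.2, for a very small protein between the subunits (28.1), rpl-28 (27.4), rps-28 (26.8) and rpl-6 (26.6). Replicate 2 ranked rps-26 at 112, rpl-7A at 102 and rps-23 at 99, whereas replicate 1 ranked them at 3985, 5707 and 7702. The order was the other way for rpl-1, at 463 in replicate 1 and 2504 in replicate 2, and for rpl-28, at 492 and 3642. The gene rpl-5, whose protein also binds the 5S ribosomal RNA, was 286 in replicate 1 and 3825 in replicate 2, with a joint signal of 24.3. Neither rpl-41.2 nor rps-28 had a region in its window in replicate 1.

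Among the genes without an IDR peak, the lowest sums of percentile ranks over both replicates were 10.1 for rpl-1, 11.2 for rps-17, 13.8 for rpl-5, 14 for rpl-28 and 15.2 for rps-26. The remaining 9 genes with a joint region had signals down to 17.3, close to the lowest of the list. In descending order they were rpl-21, at 24.1, rpl-29, at 23.5, rps-15 and rpl-18, both at 20, rpl-36.A, at 18.1, rpl-2, at 17.9, rpl-32, at 17.6, and the pair rpl-39 and rps-30. That lowest region was shared by the divergent genes rpl-39 and rps-30, 499 bp apart, so the 30 genes rested on 29 distinct regions.

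**Figure D2:**
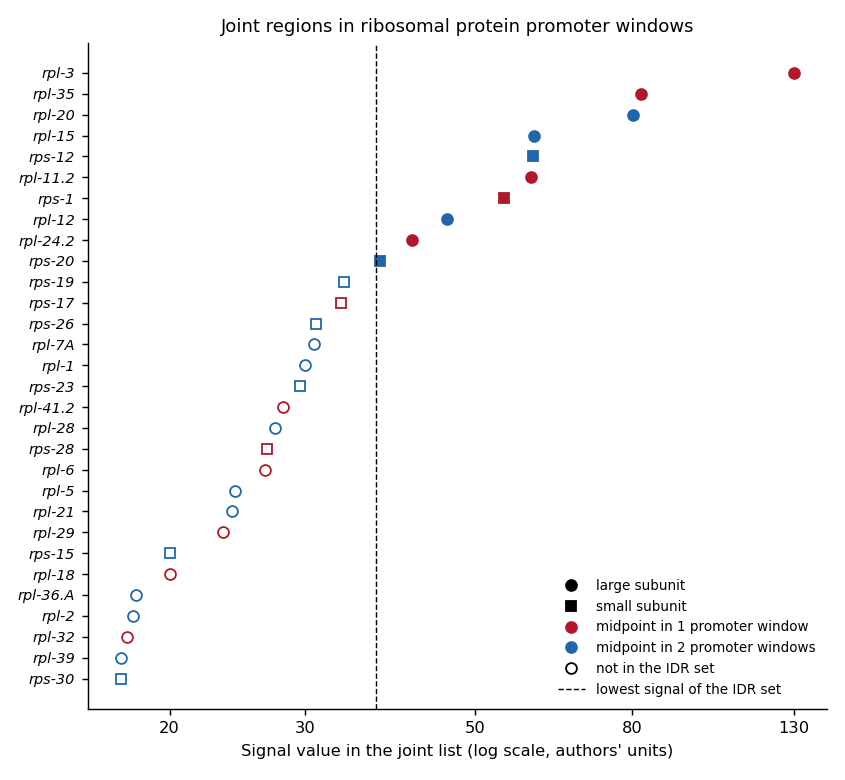
Joint-list signal (authors' units, log axis) of the 30 ribosomal protein genes with a joint region, 1 point per gene in order of signal; circles are large-subunit and squares small-subunit genes, filled where the peak is in the IDR set, red where the midpoint lies in 1 promoter window and blue where it lies in 2. The 10 filled points run from 37.6 to 130, to the right of the dashed line at 37.1, and rps-19 at 33.7 is the first open point.

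More ribosomal protein genes stood near the top of the list in replicate 2 than in replicate 1. In replicate 2 a region of the strongest 1% of the list lay in the windows of 19 genes (24.4%), beside 0.876% of all genes. In replicate 1 it did so for 9 (11.5%), beside 0.556%. The median rank of the genes with a region was 991 in replicate 2 and 3729 in replicate 1, where all protein-coding genes with a region had medians of 13001 and 11796. Replicate 2 placed 21 of these genes at a q-value of 0.05 or lower, and replicate 1 placed 0, as it did for every region. The same count over all protein-coding genes was not made, so the 21 has no share to stand beside.

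Over the 27 genes with a region in both replicates, Spearman's rho between the replicate signals was 0.543, and it was 0.312 over the 1630 protein-coding genes with one in both. The genes of each set share the same 2 libraries, so these values are descriptions. When the strongest 146 nuclear regions of each replicate were taken, 14 ribosomal protein genes (17.9%) were reached in replicate 2, beside 0.476% of all genes, and 8 (10.3%) in replicate 1, beside 0.416%. Both replicates reached 5, and how many of all protein-coding genes both reached was not counted. These 5 were rpl-3, rpl-11.2, rpl-20, rpl-35 and rps-12.

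Several genes had a region of high rank in a single list. The small-subunit gene rps-15 had rank 71 in replicate 2 with a signal of 28.7, no region in replicate 1, and a joint rank of 1745. The large-subunit gene rpl-29 had rank 129 in replicate 1 with 21.6, no region in replicate 2, and a joint rank of 725. The divergent genes rpl-24.1 and rps-10, 610 bp apart, shared a replicate 2 region at rank 185 with a signal of 20.3, and had no region in replicate 1 and no joint region in their windows. In total 15 genes had a region in replicate 2 alone, 9 in replicate 1 alone, and 7 in both replicates without a joint region. These patterns were not counted over all protein-coding genes. Of those, 24.8% had a replicate 2 region, 21.4% a replicate 1 region and 8.16% both, with or without a joint region. Over the 48 genes without a joint region, the best replicate 1 rank was 1033, at rpl-14, and the median of the 16 with a region was 9582.5. The best replicate 2 rank was the 185 of rpl-24.1 and rps-10, and the median of the 22 with a region was 9731. Apart from that pair, the highest in replicate 2 was rps-7, at rank 988 with a signal of 13.4 and a midpoint at -380 bp. A joint midpoint lay at -579 bp from this gene, outside the window and apart from that replicate 2 midpoint.

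The genes with peaks were spread over the chromosomes. Chromosome III held 4 of the 10 IDR peaks among 18 genes, chromosome IV 3 among 17, chromosome I 2 among 23 and chromosome X 1 among 2, while the 10 genes on chromosome II and the 8 on chromosome V had 0. Over all protein-coding genes the share with an IDR peak was 0.833% on III, 0.396% on IV, 1.18% on I, 0.256% on X, 0.377% on II and 0.26% on V. Joint regions were found on all 6, in 8 of 23 genes on I, 3 of 10 on II, 6 of 18 on III, 8 of 17 on IV, 4 of 8 on V and 1 of 2 on X. On each chromosome this share, from 30% to 50%, was above the share of all its protein-coding genes, which ran from 3.59% on X to 6.71% on I. With so few genes on each, no difference between chromosomes was tested.

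At least 1 list had a region in the windows of 61 genes (78.2%), beside 38.1% of all genes, and no list had one in the windows of the other 17. Those 17 were the large-subunit genes rpl-4, rpl-10, rpl-16, rpl-22, rpl-25.1, rpl-30, rpl-33, rpl-37 and rpl-42, and the small-subunit genes rps-3, rps-6, rps-11, rps-16, rps-21, rps-25, rps-27 and rps-29. A missing region means that none was listed in the window, not that no NHR-12 was there.

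**Figure D3:**
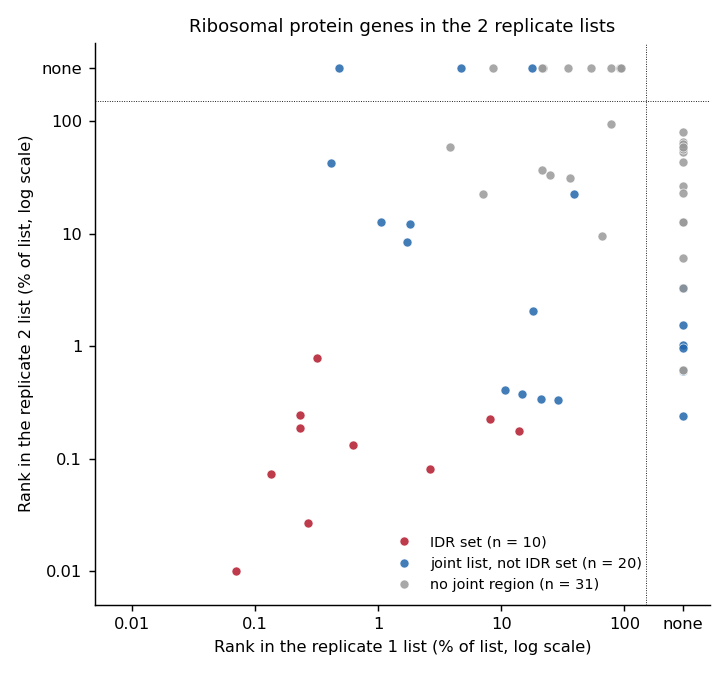
Rank of the highest region in the promoter window as a percentage of the replicate 1 list (horizontal, log axis) and of the replicate 2 list (vertical, log axis), 1 point per ribosomal protein gene with a region in at least 1 replicate; "none" marks genes without a region in that replicate, and points can overlap. All 10 genes of the IDR set lie low, within the strongest 1% of replicate 2, with rpl-3 lowest at 0.0707% and 0.01%. Along the replicate 1 axis they reach as far as 8.17% for rpl-12 and 13.9% for rps-20.

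Joint midpoints lay well upstream of the annotated 5′ ends. Their median distance was -304 bp in the ribosomal protein genes, and -190 bp over all gene and region pairs. Of the 30 midpoints 23 (76.7%) lay more than 250 bp upstream, beside 39.1% over all genes, and 0 lay downstream, beside 15.3%. In replicate 2 the downstream part held 0 of 53 midpoints, beside 23.6%, and in replicate 1 it held 4 of 43 (9.3%), beside 22.7%.

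The window limits left out a few joint regions. The closest inside were those of rpl-5 at -445 bp and rpl-2 at -444 bp. The closest outside were those of rps-7 at -579 bp, rps-4 at -583 bp and rpl-41.1 at -612 bp, and, downstream, that of rps-0 at 218 bp. The strongest left out was at -739 bp from rpl-43, with a signal of 29.4. Inside the gene bodies, the ribosomal protein genes held 2 joint midpoints, or 3.23 per 100 kb beside 3.11 in all genes, whereas the promoter windows held 54.9 and 7.17 per 100 kb.

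The annotated 5′ end may be a trans-splice site, where a spliced leader is joined, and not the start of transcription. TTTCAG, the sequence that precedes such sites, was present on the gene's strand within 20 bp of the 5′ end in 42 of the 78 genes (53.8%), beside 24.4% of all genes. Its part in the distances was not tested.

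**Figure D4:**
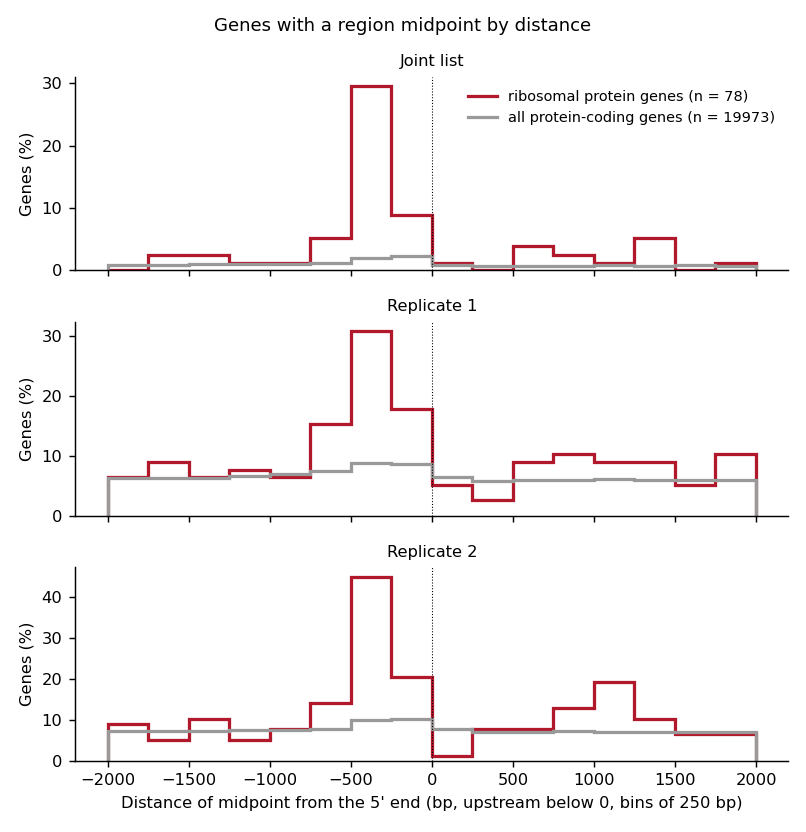
Share of genes (%) with at least 1 region midpoint in each bin of 250 bp, out to 2000 bp on either side of the 5′ end, for the joint list and both replicate lists; red lines are the 78 ribosomal protein genes and grey lines all 19973 protein-coding genes. In each panel the red line is highest in the bin that begins 500 bp upstream.

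Many of these windows were shared. A divergent protein-coding 5′ end lay within 1000 bp upstream of 47 of the 78 genes (60.3%), beside 17.7% of all genes, and 50 windows (64.1%) overlapped the window of another gene, beside 20.3%. Of the 30 joint midpoints 18 also lay in another gene's window, among them 5 of the 10 IDR midpoints. The ribosomal protein gene had the nearest protein-coding 5′ end in 17 of the 30 cases and in 7 of the 10. Over all protein-coding genes this held for 840 of the 994 with a joint region and 79 of the 102 with an IDR peak. In the joint list the ribosomal protein genes were thus less often the nearest than genes at large.

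The share with a joint region was close in ribosomal protein genes with and without a divergent neighbour, at 40.4% of 47 and 35.5% of 31. Over all protein-coding genes it was 9.49% with such a neighbour and 4% without. Of the 31 ribosomal protein genes without one, 4 had an IDR peak (12.9%), beside 0.341% of all genes without one. The neighbours that shared a midpoint included lin-54, a DNA-binding subunit of the DRM repressor complex, and mrpl-49, a mitochondrial ribosomal protein, whose window held the region of rpl-28.

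The 3 larger lists of genes of the translation machinery gave lower shares in the joint list. Translation factors came next, with 13 of 40 (32.5%), and 3 had an IDR peak: the elongation factor eef-2 and the initiation factor subunits eif-3.B and eif-3.C. In replicate 1 their share was 50%, the same as in the ribosomal protein genes, and in replicate 2 it was 45%, beside 62.8%. A joint region together with regions of both replicates lay in 27.5% of their windows, beside 25.6% for the ribosomal protein genes. Mitochondrial ribosomal protein genes had 9 of 70 (12.9%) and 2 IDR peaks, at mrpl-28 and mrps-7. Genes for ribosome biogenesis and RNA polymerase I had 6 of 29 (20.7%) and 0 IDR peaks, although replicate 2 had a region for 19 of them (65.5%). Of 6 genes for cytosolic ribosomal proteins with other symbols, rack-1, rla-2 and ubl-1 (50%) had joint regions, with signals from 19.5 to 21.2, and none had an IDR peak. Differences between these groups were not tested.

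The sequence within 100 bp of the joint midpoints had a higher median GC content than promoters at large. The median GC content was 41.8% over the 29 regions, 36.3% over the joint regions in any promoter window and 33.3% over all nuclear joint regions. It was 33.8% over stretches of the same length centred 304 bp upstream of every protein-coding gene. At that same distance the promoters of all 78 ribosomal protein genes had 38.6%. The part of base composition in the signal was not tested.

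The hexamer AGGTCA, which many nuclear receptors recognise, was in 0 of the 29 regions on either strand, beside 5.09% of all promoters. Of the joint regions in any promoter window 3.06% held it, and of the ribosomal protein promoters 2.56%. The related AAGTCA was in 1 (3.45%), beside 9.16% of all promoters, and AGTTCA in 2 (6.9%), beside 13.6%. GAGAGA was in 7 (24.1%), beside 11.9% of all promoters, 20.3% of joint regions in any promoter window and 19.2% of ribosomal protein promoters. TATAAA was in 5 (17.2%), beside 24.2%, 20.9% and 20.5% in the same order. The absence of a match says only that these letters are not in the stretch searched.

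The shared words in the printed stretches were found by searching these sequences, so their counts there describe the choice and support nothing. Every word of 7 or 8 letters was tried on both strands within 100 bp of the midpoints. It was kept if at least 5 (for 7 letters) or 4 (for 8) of the 10 IDR windows held it, or at least 8 or 6 of the 29 joint windows, and if under 2% of all promoters did. The IDR windows gave CGAGTGT (in 5), AAGTGTAT (in 4), CGCTCCAC (in 4) and TACGGTAA (in 4), which 1.05%, 0.971%, 0.506% and 0.846% of all promoters held. The joint windows gave GGCCTAAA, in 9 of 29 beside 0.756% of promoters, and the overlapping GGCCTAA, GCCTAAAA, TGGCCTAA and TAGGCCA. GGCCTAAA was in 3 of the 10 IDR windows and in 6 of the other 19. Those of the IDR set were rpl-3, rpl-11.2 and rpl-15, whose shorter printed stretches do not reach the whole word.

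The 48 ribosomal protein genes without a joint region did not enter that search. Within 500 bp upstream of them GGCCTAAA was present in 11 (22.9%), beside 1.65% of all genes, CGAGTGT in 7 (14.6%) beside 2.63%, and TACGGTAA in 4 (8.33%) beside 2.03%. AAGTGTAT was in 0 of the 48 beside 2.38%, and CGCTCCAC in 1 (2.08%) beside 1.28%. The first 3 words thus also lay upstream of ribosomal protein genes without a listed joint region. Counts of CGAGTGT and TACGGTAA there are not separate. The 4 genes with TACGGTAA (rpl-24.1, rps-10, rpl-34 and rps-13) were among the 7 with CGAGTGT. In each of them the 2 words overlapped, and rpl-24.1 and rps-10 shared 1 site. GGCCTAAA and AAGTGTAT were in 0 of the 136 other nuclear IDR peaks, CGAGTGT in 2 (1.47%), and CGCTCCAC and TACGGTAA in 5 each (3.68%). GGCCTAAA was in 0.843% of all nuclear joint regions, among them the regions from which it was picked. These shares were not tested.

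CGAGTGT and TACGGTAA, the latter read in reverse, were joined in 1 run of 14 bases, CGAGTGTTACCGTA, seen above in rpl-11.2 and rpl-21. The nuclear genome held 17 exact copies on either strand, of which 7 lay within 500 bp upstream of a ribosomal protein gene. Those 7 served 8 genes (10.3%), beside 22 of all protein-coding genes (0.11%), since rpl-24.1 and rps-10 shared one between them. The others were upstream of rpl-1, rpl-11.2, rpl-21, rpl-34, rps-13 and rps-23. A joint midpoint lay within 100 bp of 3 of these 7 copies and of 3 of the other 10, and a replicate 2 midpoint within 100 bp of 5 and 5. The other 10 are not all away from ribosomal protein genes. Of them, 1 lay inside rpl-19, with a replicate 2 midpoint at 97 bp. Another lay upstream of rps-18 beyond the 500 bp limit, past the 5′ end of the divergent sec-61.A, with a replicate 2 midpoint at 86 bp. The run was chosen after the sequences were seen, and a match is not a binding site.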

How the data were processed

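Region lists of NHR-12 ChIP-seq in 2 biological replicates were analysed in build ce11. The deposited lists hold, per region, a signal score and a −log10 q-value set by the authors' peak caller. Per the deposited description of file types, the replicate and joint lists were input to IDR and hold background as well as peaks. The aligner, the caller and their versions, like the threshold of IDR, are not given in the sources used here. No read counts or coverage were used, so depth and counting error are unknown. Lists of build ce10 were not used.

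Midpoints were start plus the offset in the last column. Genes and 5′ ends were from Ensembl release 115 (WBcel235), and sequence from RefSeq. Regions were ranked by signal within each list, and the highest in a window stood for its gene. Replicates share 1 group, so no test was run. The search was tested on simulated midpoints. Genes named with values had an IDR peak, were among the next 10 by joint signal, or among the 5 with the lowest summed replicate percentiles; rps-15, rpl-29, rpl-24.1, rps-10, rpl-11.1, rpl-14, rps-7, the lowest joint regions and the genes at the window limits were singled out after their values were seen. Members and lists were chosen with earlier results of these data known. Tools were Python 3.11.15, pandas 2.3.3, numpy 2.4.6 and matplotlib 3.10.9.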

Additional observations from a re-analysis of the deposited data

How the results depend on the processing

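With the upstream limit at 250 bp in place of 500 bp, the ribosomal protein genes with a region fell to 4 in the IDR set (5.13% beside 0.315% of all genes), 7 in the joint list (8.97% beside 3.04%), 17 in replicate 1 (21.8% beside 13.3%), 16 in replicate 2 (20.5% beside 15.8%) and 7 in both (8.97% beside 4.01%). The share over all genes was thus closer to that of the ribosomal protein genes in the replicate lists than with the 500 bp limit. When a midpoint was given only to the nearest protein-coding 5′ end, they were 17 in the joint list (21.8% beside 4.21%), 23 in replicate 1 (29.5% beside 19.3%), 32 in replicate 2 (41% beside 22.5%) and 13 in both (16.7% beside 6.86%), while the IDR count was 7 (8.97% beside 0.396%). Ranking on 1 replicate in place of both gave from 8 to 14 genes for the IDR count and from 20 to 31 for the joint count. The genes were partly different ones. On replicate 1 alone, 6 of the 8 and 17 of the 20 were among those reported. On replicate 2 alone, 9 of the 14 and 24 of the 31 were. Of 40 alternatives in all, 31 stayed within 1.5 times the count reported. Among these were the rankings on 1 replicate and the IDR count with the nearest 5′ end. The joint count of 20 on replicate 1 alone lay exactly at the limit of 1.5 times. A limit of 1000 bp, overlap in place of midpoint and 5′ ends of all transcripts also stayed within 1.5 times. The 9 past it were counts with the 250 bp limit or with the nearest 5′ end only. No paired analysis was possible because there was only 1 group. The lists limit what can be said: a gene without a region may lie just under a list's lowest signal, many joint regions have weak q-values, and regions shared with a divergent neighbour cannot be assigned to 1 gene. The 2 replicates share 1 line, and the control was not analysed here.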
